A study of Sus scrofa with 22 samples.

Results

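Cells labelled as stroma (S) were compared with luminal epithelium (LE) of the same pregnant gilts, using the 3 gilts of which the endometrium gave a library of both. These are gilts 01, 05 and 14, so that 6 of the 22 libraries of the data set entered the comparison, and the genes were those listed in the S table and in the LE table under the same NCBI Gene ID (10890 genes). Cells were taken by laser capture microdissection (LCM) from stained frozen sections of endometrium collected on Day 12 after insemination. The gilts were crossbreds of German Landrace and Piétrain, prepuberal at purchase, with ovulation induced by PMSG and hCG; the cyclic gilts used here for reference (02, 04 and 13) received the same injections and sperm-free supernatant in place of semen. The study describes the captured stroma as fibroblasts mixed with other cells, mainly immune cells. It also states that vessel-rich regions of the endometrium were left out of the stroma samples. Each library was made from a very small amount of RNA and amplified. Gilt 01 gave the shallowest libraries, with a total of 1344151 counts in S and 893912 in LE, while the other libraries held 3146012 to 3499461 counts.

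The LE lines the uterine lumen and is the surface the conceptus meets. Underneath lies the stroma, a connective tissue of fibroblasts that make collagen fibres and the small proteoglycans decorin and lumican, with blood and lymph vessels and immune cells. Uterine glands run through this tissue and secrete proteins for the conceptus, of which uteroferrin is well known in the pig. A stroma sample is therefore expected to be rich in collagens and fibroblast transcription factors and poor in keratins and E-cadherin relative to a sample of LE.

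The marker genes went against this picture in gilt 05 and followed it only in part in gilts 01 and 14. Values are CPM, the counts scaled to a common library size, after TMM normalization. COL1A1, a chain of type I collagen, lay at 19559, 1975 and 3675 CPM in S of gilts 01, 05 and 14 and at 8083, 3323 and 2864 CPM in LE. S was thus higher than LE in gilts 01 and 14 and lower in gilt 05, and the range of LE lay within that of S. COL3A1, of type III collagen, had 20004, 2855 and 4314 CPM in S and 5387, 3271 and 3655 CPM in LE. DCN (decorin) was the only member of the fibroblast list whose libraries did not overlap, with 1919, 564 and 657 CPM in S and 426, 529 and 533 CPM in LE (log2 difference 0.83 ± 0.47, SE, FDR = 0.362). None of the 12 fibroblast genes passed an FDR (Benjamini-Hochberg, quasi-likelihood test of edgeR) of 5% in either direction; 0 were higher in S and 1 in LE at an unadjusted p below 0.05, and DESeq2 called the same numbers at its FDR. Summed over the list, the fibroblast genes held 63365, 9216 and 12507 CPM in S against 25470.5, 14282 and 13022 CPM in LE. The median log2 difference of the list was 0.17, and −0.35 in the fit without gilt 01.

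Epithelial genes were present in S, at a summed level close to that of LE in gilt 05 and lower in gilts 01 and 14. EPCAM, an adhesion molecule of epithelia, lay at 181, 672 and 440 CPM in S and at 179, 586 and 474 CPM in LE, a log2 difference of 0.04 ± 0.26 (FDR = 0.956). CDH1 (E-cadherin) had 369, 2126 and 830 CPM in S and 1171, 1876 and 1875 CPM in LE, lower in S in gilts 01 and 14 and higher in gilt 05. None of the 15 genes of the epithelium list passed the FDR, with 1 higher in S and 6 higher in LE at an unadjusted p below 0.05 and 1 and 5 called by DESeq2. The summed list came to 1695, 6040 and 3367 CPM in S and to 4964, 6260 and 6180 CPM in LE. For 6 of the 15 genes S lay below LE without overlap, against 7.57% of all genes: KRT7, CLDN3, CLDN4, ELF3, MUC1 and ST14. MUC1 is a mucin of the apical surface and CLDN4 a tight junction protein, MUC1 with 118, 780 and 346 CPM in S and 996, 1382 and 984 CPM in LE (FDR = 0.103), and CLDN4 with 177, 623 and 176 CPM in S and 1141, 803 and 755 CPM in LE (FDR = 0.112).

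Markers of other cells were also counted. The blood endothelium list (10 genes in both tables) had 1953, 472 and 300.2 CPM in S and 1714, 1018 and 637 CPM in LE, and none of its members passed the FDR (5 higher in LE at an unadjusted p below 0.05, 1 called in LE by DESeq2). LE of gilt 01 stood apart by genes of smooth muscle: ACTA2 lay at 3396 CPM there against 160 and 63.4 CPM in LE of gilts 05 and 14, and at 607, 99.5 and 77.9 CPM in S. Of the 19 leukocyte genes only 4 were listed in both tables, and these summed to 294, 191 and 129 CPM in S and 298, 299 and 260.5 CPM in LE; the median of their log2 differences was 0.30, the opposite sign to that of the ratio of the sums (mean log2 ratio −0.56 ± 0.50, SD, n = 3). The glandular list (ACP5 and SOX17 in both tables) summed to 1411, 3236 and 596.5 CPM in S and to 521, 552 and 323 CPM in LE, higher in S in each gilt. In glandular epithelium (GE) it summed to 3560, 3833.5 and 1514 CPM. Its members differed: ACP5 was higher in S in each gilt, while SOX17 was lower in S in gilts 01 and 05. Normalized over 9 libraries, SOX17 had 128, 412 and 342 CPM in S, 489, 550 and 313 CPM in LE and 274, 288 and 373 CPM in GE. The trophoblast list, meant to show conceptus tissue, had only GATA2 in both tables, a transcription factor that is also made in other tissues. The defining genes of that list, CYP17A1, CYP19A3 and IL1B2, were listed in neither table. In these bulk samples, fewer cells of a type and less RNA per cell cannot be told apart, and the part that such cells, those of glands included, have in the gene differences given below was not tested.

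**Figure D1:**
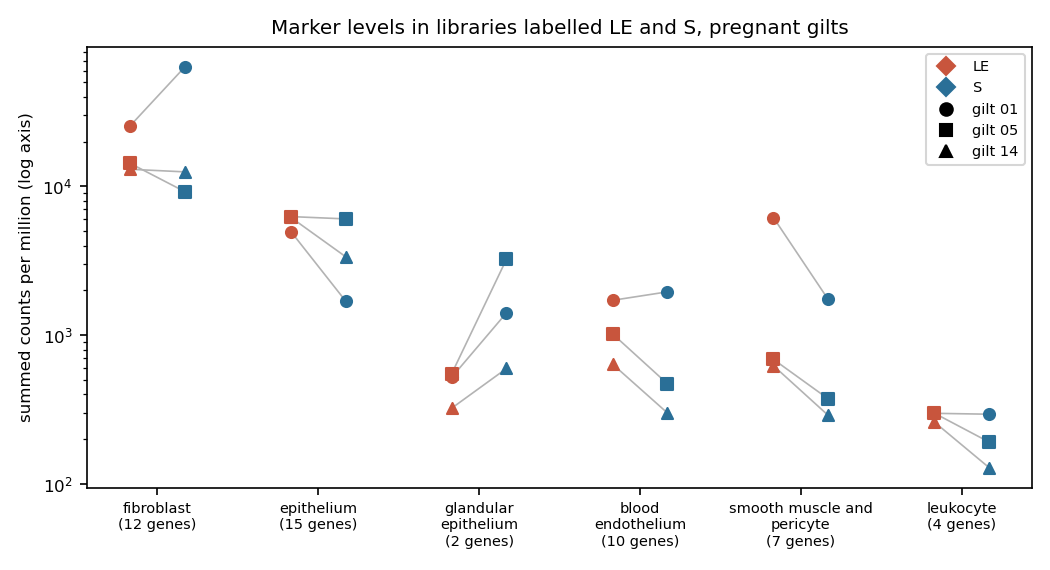
Summed CPM (log axis, TMM-normalized) of 6 marker lists in each library labelled LE (red) or S (blue) of pregnant gilts, with 1 symbol for each gilt and a line joining the libraries of a gilt. The fibroblast sum was higher in S in gilt 01 (63365 against 25470.5 CPM) but not in gilts 05 and 14, and the epithelial sums were almost equal in gilt 05 (6040 against 6260 CPM).

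In the cyclic gilts the fibroblast list summed to 5512, 9474 and 9715 CPM in S of gilts 02, 04 and 13 and to 13492, 19466 and 16941 CPM in LE. S was lower than LE in each of these 3 gilts. The epithelium list summed to 4601, 3989 and 4456 CPM in cyclic S and to 4819, 4064 and 4107 CPM in cyclic LE. Since the sum of the fibroblast markers was higher in the library labelled S in gilt 01 and in no other of the 6 gilts, S and LE stand in the following for the labels of the libraries.

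Set beside the third compartment of the study, glandular epithelium (GE), the S libraries were closest to GE of their own gilt. Pearson's r of log2(CPM + 1) over 10643 genes listed in all 3 tables was 0.922, 0.958 and 0.954 between S and GE of gilts 01, 05 and 14. Between S and LE of the same gilts it was 0.785, 0.895 and 0.823. Among the S libraries r lay between 0.791 and 0.859, and among the LE libraries between 0.832 and 0.933. The genes are not independent replicates, and S and LE of a gilt also share the animal, so these values are a description. S of gilt 05 had r = 0.906 with LE of gilt 14, higher than with either of the other S libraries.

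**Figure D2:**
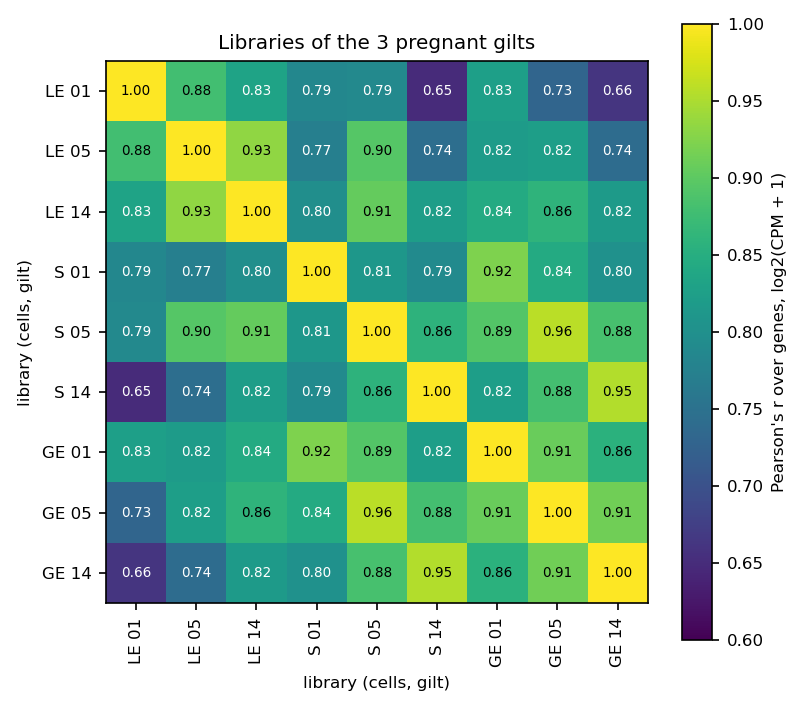
Pearson's r of log2(CPM + 1) over 10643 genes between the 9 libraries of gilts 01, 05 and 14, with both axes giving the cells and the gilt. S and GE of the same gilt had r of 0.922 to 0.958, above every value among the S libraries (0.791 to 0.859).

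With the gilt as a block, 121 genes were higher in S (1.11% of the 10890 tested) and 3 were higher in LE (0.0275%). At an unadjusted p below 0.05 the directions were even, with 1091 genes higher in S (10.0%) and 1202 higher in LE (11%). The libraries of both compartments did not overlap for 116 of the 121 genes and for 1 of the 3, against 10.4% and 7.57% of all genes, and all 121 were higher in S in each of the 3 gilts; both follow in part from the test that picked these genes. Their log2 differences ran from 1.52 to 7.61 with a median of 2.75. The count depended on the gilts: it was 150 in S and 13 in LE without gilt 01, 191 and 320 without gilt 05, and 98 and 1 without gilt 14. Without the gilt as a block it was 2 and 0, and DESeq2 with the block called 432 in S and 537 in LE. The excess of genes higher in S was thus not found without gilt 05, whose S library was the most like LE, nor with DESeq2.

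Of the genes higher in S, MEP1B had the largest difference. This gene for the beta subunit of the protease meprin (Sscrofa11.1, chromosome 6, 116015021 to 116049796) lay at 1394, 2717 and 534 CPM in S and at 1.17, 3.47 and 21.1 CPM in LE. Every S library held at least 533.6 CPM and no LE library more than 21.1 CPM, with a log2 difference of 7.61 ± 1.18 (FDR = 0.0406). In LE of gilt 01, 3 counts are 3.36 CPM, so the size of this difference is uncertain. The same holds for other genes below that level there, and 57 of the 121 genes had at least 10 counts in every library. ACP5, which encodes uteroferrin (chromosome 2, 70206159 to 70209855), had 1284, 2825 and 255 CPM in S and 36.2, 5.20 and 12.2 CPM in LE (log2 difference 6.01 ± 0.98, FDR = 0.0452). SAL1, a lipocalin first known from saliva, was highest in S of gilt 14, at 255, 533 and 3140 CPM in S and 9.35, 6.65 and 85.9 CPM in LE (5.47 ± 0.44, FDR = 0.0159). ANPEP, the membrane peptidase aminopeptidase N, lay at 172, 230 and 97.5 CPM in S and at 3.51, 3.47 and 4.46 CPM in LE (5.30 ± 0.41, FDR = 0.0159). ENPP3, an enzyme that splits nucleotides outside the cell, had 39.5, 103 and 110 CPM in S and 0, 2.02 and 14.6 CPM in LE (4.26 ± 0.66, FDR = 0.0406).

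All 121 genes higher in S were also listed in the GE table, as were 10643 of the 10890 genes tested, so this says little about them. The mean of S was above the mean of GE for 32 of the 121, and the share over all genes was not counted. S and GE were both set against the same LE libraries, so their own values are given side by side. In a normalization over the 9 libraries of the same gilts, MEP1B lay at 2597, 5860 and 864 CPM and ACP5 at 3285, 3545 and 1141 CPM in GE of gilts 01, 05 and 14. SAL1 had 44.7, 381 and 1803 CPM in GE and ANPEP 321, 474 and 98.8 CPM. For MEP1B, ACP5 and ANPEP each GE value was above that of S in the same gilt, and for SAL1 each was below it. No test was made of S against GE.

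ALDH1A1, which makes retinoic acid from retinal, had 313, 317 and 380 CPM in S and 1.17, 1.73 and 17.2 CPM in LE (log2 difference 6.01 ± 0.68, FDR = 0.0170). FAM84A lay at 330, 562 and 1013 CPM in S and at 1.17, 4.05 and 75.5 CPM in LE (5.70 ± 0.80, FDR = 0.0311). ARHGEF38, an activator of small GTPases, had 43.1, 81.0 and 95.9 CPM in S and 2.34, 1.45 and 7.43 CPM in LE (4.46 ± 0.49, FDR = 0.0159). DNAJC12, a co-chaperone, had 47.5, 113 and 27.4 CPM in S and 7.01, 3.18 and 1.49 CPM in LE (4.17 ± 0.52, FDR = 0.0241). For these 4 genes no LE library reached the lowest S library. In GE, ALDH1A1 had 494, 517 and 372 CPM and FAM84A 347, 664 and 1399 CPM.

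**Figure D3:**
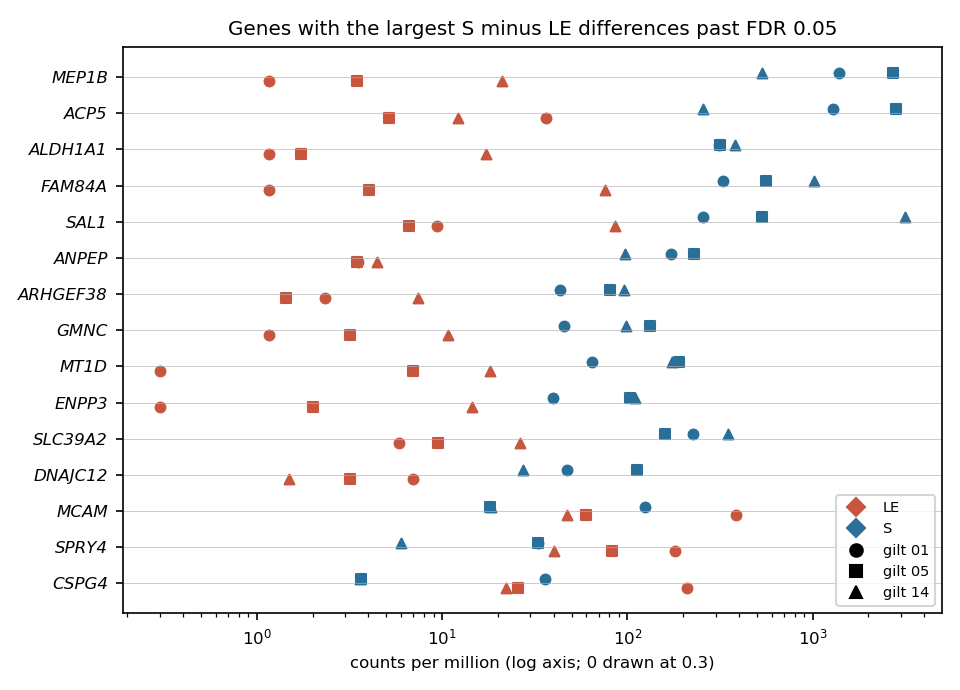
CPM (log axis, 0 drawn at 0.3) in each LE (red) and S (blue) library of pregnant gilts, with 1 symbol for each gilt, for the 12 genes with the largest difference towards S and the 3 genes higher in LE. MEP1B has the widest gap, from at most 21.1 CPM in LE to at least 533.6 CPM in S, while CSPG4 and MCAM overlap between S of gilt 01 and LE of gilts 05 and 14.

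Genes of zinc and metal handling were found among the genes higher in S; this grouping was made after the values were seen. Metallothioneins are small proteins that bind zinc and copper, and all 3 listed in both tables passed the FDR, a rule that 1.11% of all genes met. MT1D lay at 64.3, 191 and 175 CPM in S and at 0, 6.94 and 18.1 CPM in LE (log2 difference 4.27 ± 0.55, FDR = 0.0250). MT1A had 10.2, 40.3 and 83.0 CPM in S and 0, 0 and 5.95 CPM in LE (FDR = 0.0452), and MT3 had 2.92, 11.6 and 37.9 CPM in S and 0, 0.578 and 2.68 CPM in LE (FDR = 0.0292). Metallothionein genes are near copies of each other, and how reads shared between such genes were counted is not stated, so the values of single members are uncertain. SLC39A2, a zinc importer, was higher in S at 227, 160 and 350 CPM against 5.84, 9.54 and 26.5 CPM in LE (4.19 ± 0.36, FDR = 0.0159). The other 9 importers of its family (SLC39A) in both tables did not pass. SLC30A2, a zinc exporter, had 33.6, 32.1 and 25.9 CPM in S and 0, 2 and 2 reads in LE (FDR = 0.0159), too few for a fold. In GE of the same gilts MT1D had 103, 193 and 156 CPM, SLC39A2 420, 397 and 168 CPM and SLC30A2 70.3, 53.9 and 69.9 CPM. The other 7 exporters (SLC30A) did not pass, among them SLC30A3 with 16.1, 69.4 and 12.9 CPM in S and 147, 89.6 and 69.0 CPM in LE (FDR = 0.112).

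The 3 metallothionein genes lie near each other on chromosome 6, and their promoters are shown because the genes moved together and because metallothioneins are textbook targets of the metal-sensing factor MTF1. Given are the 250 bases before each annotated gene start, read from Sscrofa11.1 (RefSeq), all on the plus strand, at chr6:18634485-18634734 for MT3, chr6:18650735-18650984 for MT1D and chr6:18671766-18672015 for MT1A. Capitals mark each match, on either strand, to the core of the metal response element, written TGCACNC or TGCGCNC.
MT3: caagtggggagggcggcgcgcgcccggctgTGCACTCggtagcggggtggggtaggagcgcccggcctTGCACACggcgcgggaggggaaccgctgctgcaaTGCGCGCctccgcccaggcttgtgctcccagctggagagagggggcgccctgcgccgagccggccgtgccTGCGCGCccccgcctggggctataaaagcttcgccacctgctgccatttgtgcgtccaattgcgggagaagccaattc
MT1D: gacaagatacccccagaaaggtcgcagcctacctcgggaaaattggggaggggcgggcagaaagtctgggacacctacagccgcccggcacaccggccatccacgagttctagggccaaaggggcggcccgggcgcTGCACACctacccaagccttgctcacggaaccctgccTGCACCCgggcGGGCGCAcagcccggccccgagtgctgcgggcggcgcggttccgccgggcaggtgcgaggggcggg
MT1A: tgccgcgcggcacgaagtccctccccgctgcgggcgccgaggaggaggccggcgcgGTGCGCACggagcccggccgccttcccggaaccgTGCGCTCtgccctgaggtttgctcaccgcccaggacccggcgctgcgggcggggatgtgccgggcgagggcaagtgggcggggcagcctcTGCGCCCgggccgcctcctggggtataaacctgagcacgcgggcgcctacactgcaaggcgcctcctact
MT3 has 4 matches, MT1D 3 and MT1A 4, of which 2 in MT1A overlap each other on opposite strands. At least 1 match was found in 27.1% of 10812 promoters of the same length, at least 3 in 1.91% and at least 4 in 0.453%. Among 120 of the 121 genes higher in S with such a window, 36 (30%) held at least 1 match, 8 (6.67%) at least 3 and 2 (1.67%) at least 4. The 8 include the 3 metallothioneins for which the windows were read, and the 2 are MT3 and MT1A. The windows of SLC30A2 and SLC39A2 held 0. A match is a description of the sequence and not a bound site.

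Genes of motile cilia made a further group, also put together after the values were seen. GMNC, which starts the formation of many cilia in a cell, lay at 45.3, 133 and 98.7 CPM in S and at 1.17, 3.18 and 10.7 CPM in LE (log2 difference 4.29 ± 0.51, FDR = 0.0211). Of the 8 axonemal dynein heavy chains in both tables, the motors of the cilium, 3 passed the FDR and all 8 were higher in S in each gilt, with a median log2 difference of 2.17. Over all genes, 1.11% passed towards S and 2477 of 10890 were higher in S in each gilt. DNAH5 had 89.2, 76.0 and 188 CPM in S and 12.9, 13.6 and 40.7 CPM in LE (2.46 ± 0.27, FDR = 0.0159), and DNAH11 and DNAH12 also passed. HYDIN, a protein of the central pair of the axoneme, had 92.1, 108 and 236 CPM in S and 19.9, 10.7 and 52.6 CPM in LE (2.57 ± 0.33, FDR = 0.0250). Of 12 CFAP genes in both tables, CFAP47 and CFAP54 passed and 10 were higher in S in each gilt. CFAP69 went the other way in each gilt, with 18.3, 45.3 and 26.2 CPM in S and 19.9, 59.6 and 65.1 CPM in LE (FDR = 0.315). A further 8 CFAP genes were listed for S and not for LE. In GE, DNAH5 had 196, 167 and 224 CPM and HYDIN 270, 212 and 304 CPM, above S of the same gilt in each case.

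Among regulators, LEF1, a transcription factor of the WNT pathway, had 442, 720.5 and 680 CPM in S and 70.1, 110 and 139 CPM in LE (log2 difference 2.55 ± 0.27, FDR = 0.0159). NFIB lay at 551, 562 and 799.5 CPM in S and at 99.4, 114 and 142 CPM in LE (2.42 ± 0.26, FDR = 0.0159). GATA2 had 70.9, 75.4 and 79.1 CPM in S and 10.5, 14.8 and 29.1 CPM in LE (2.10 ± 0.34, FDR = 0.0430). LEF1 and NFIB were picked after their values were seen. In all 3 genes S exceeded LE in every gilt without overlap. LEF1 had 469, 1091 and 1350 CPM and GATA2 79.1, 92.6 and 77.1 CPM in GE.

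The 3 genes higher in LE were CSPG4, SPRY4 and MCAM, of which 1 was still called without gilt 01, 1 without gilt 14 and 0 in a fit by limma voom with LE of gilt 03 added and the gilt as a random block. CSPG4 (NG2), a proteoglycan of pericytes, had 209, 25.7 and 22 CPM in LE and 35.8, 3.64 and 3.61 CPM in S (log2 difference −2.64 ± 0.29, FDR = 0.0159). MCAM (CD146), of endothelium and pericytes, had 387, 59.6 and 47.0 CPM in LE and 125, 18.2 and 18.3 CPM in S (−1.57 ± 0.25, FDR = 0.0423). For both genes LE exceeded S within each gilt while the compartments overlapped between gilts, with the highest values in both libraries of gilt 01. SPRY4, an inhibitor of growth factor receptor signals, had 181, 82.7 and 40.1 CPM in LE and 32.9, 33.1 and 6.02 CPM in S (−2.13 ± 0.35, FDR = 0.0452), without overlap. The smooth muscle and pericyte list, of which CSPG4 is a member, summed to 6156, 686 and 623 CPM in LE and to 1737, 373 and 289 CPM in S.

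Over 28 gene lists, 369 genes were in both tables, of which 5 passed the FDR towards S and 1 towards LE, beside 1.11% and 0.0275% of all genes. The median log2 difference of the list genes was −0.37, against 0.002 over all genes tested. The members higher in S were ACP5, GATA2, CDH13, C4A and ADAMTS5, and the member higher in LE was CSPG4. CDH13, a cadherin without a cytoplasmic part, had 653, 930 and 392 CPM in S and 146, 60.7 and 70.5 CPM in LE (2.85 ± 0.42, FDR = 0.0323). ADAMTS5, a protease that cuts proteoglycans, had 273.5, 89.6 and 52.9 CPM in S and 52.6, 24.6 and 14.3 CPM in LE (2.04 ± 0.26, FDR = 0.0250).

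Matrix genes, which a stroma sample would be thought to hold, differed in direction between gilts. Of 23 interstitial matrix genes 0 passed in either direction (2 towards S and 7 towards LE at an unadjusted p below 0.05, 2 and 2 called by DESeq2), with a median log2 difference of −0.25. The median was 0.56 in gilt 01, −0.86 in gilt 05 and −0.80 in gilt 14, and −0.70 in the fit without gilt 01 and −0.16 without gilt 05. FN1 (fibronectin) had 1565, 519 and 400.4 CPM in S and 3267, 672.5 and 816 CPM in LE (FDR = 0.208). Of the 11 stromal-type basement membrane genes 0 passed (0 and 1 at an unadjusted p below 0.05, 0 by DESeq2), with a median of −0.60. COL4A1 had 3937, 644 and 349 CPM in S and 4015, 1415 and 1050 CPM in LE (FDR = 0.265). The 14 mesenchymal transcription factors in both tables had a median of −0.22 and 0 calls (0 and 1 at an unadjusted p below 0.05, 0 towards S and 1 towards LE by DESeq2). That median had no stable sign: it was −0.93 without gilt 01, 0.14 without gilt 05, 0.19 without gilt 14 and 0.18 without the gilt as a block. A further 7 of that list, among them HAND2, TWIST1 and TWIST2, were listed for LE and not for S.

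Growth factors and receptors leaned in both directions without passing the FDR. FGF7, which acts on epithelia, was low in S of gilt 01, with 330.5, 2251 and 494 CPM in S and 2563, 3761 and 2155 CPM in LE (log2 difference −1.95 ± 0.50, FDR = 0.0988). IGF1 had 1638, 482 and 599 CPM in S and 464, 995 and 563 CPM in LE (FDR = 0.834). EGFR lay at 107, 129 and 289 CPM in S and at 46.8, 57.5 and 82.7 CPM in LE, without overlap (1.40 ± 0.26, FDR = 0.0659). MET, the receptor of hepatocyte growth factor, had 137.5, 1188 and 451 CPM in S and 767, 1516 and 1935 CPM in LE (FDR = 0.117).

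Several lists of signalling and transport had most of their members lower in S, though none of these members passed the FDR towards LE. At an unadjusted p below 0.05, against 11% of all genes, 9 of 22 integrins and ligands, 9 of 19 interleukin 1 and NF-kappa-B genes, 8 of 16 prostaglandin genes and 10 of 18 calcium transport genes were higher in LE. DESeq2 called 6, 7, 6 and 8 of them towards LE. The lists were chosen with earlier results of these data known. The study reports members such as IL1R1, AKR1B1 and TRPV6 as raised in LE of pregnant gilts, so these shares are a description. The median log2 differences of the 4 lists were −0.84, −0.84, −0.92 and −0.98 in pregnant gilts. In cyclic gilts they were −0.47, −0.10, −0.06 and 0.03. SPP1 (osteopontin), an integrin ligand, had 40.2, 50.6 and 35.5 CPM in S and 230, 102 and 139.5 CPM in LE (−1.82 ± 0.34, FDR = 0.0649). IL1R1, the receptor of interleukin 1, lay at 326, 1401 and 368 CPM in S and at 2439, 2231 and 1378 CPM in LE (−1.83 ± 0.49, FDR = 0.103). AKR1B1, which makes prostaglandin F2α, had 611, 4108 and 169 CPM in S and 7878, 7743 and 1560 CPM in LE (−2.64 ± 0.65, FDR = 0.0921). TRPV6, a calcium channel, had 103, 750.2 and 90.5 CPM in S and 1601, 1400 and 317 CPM in LE (FDR = 0.109). In IL1R1, AKR1B1 and TRPV6, S of gilt 05 was the highest S library and overlapped with LE of gilt 14.

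Some members of the same lists pointed towards S. PTGER2, a receptor of prostaglandin E2, lay at 237, 578 and 87.2 CPM in S and at 5.84, 7.81 and 16.1 CPM in LE, without overlap (log2 difference 4.56 ± 0.77, FDR = 0.0508). SLC24A4, a sodium/calcium exchanger, had 352, 1011 and 116 CPM in S and 7.01, 2.89 and 38.1 CPM in LE (5.06 ± 1.36, FDR = 0.103). Of 15 complement genes 1 passed, C4A, with 548, 83.7 and 175 CPM in S and 88.8, 17.6 and 44.6 CPM in LE (2.28 ± 0.26, FDR = 0.0182), and 6 more were higher in S at an unadjusted p below 0.05, against 10.0% of all genes. Of 15 steroid receptors and cofactors 0 passed (5 towards S and 0 towards LE at an unadjusted p below 0.05, 3 and 0 by DESeq2). ESR1, the estrogen receptor alpha, had 249, 214 and 877 CPM in S and 87.7, 156 and 217 CPM in LE (FDR = 0.104). PGRMC1, a membrane protein of progesterone action, had 336, 590.5 and 693 CPM in S and 171, 299 and 273 CPM in LE (FDR = 0.0905).

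**Figure D4:**
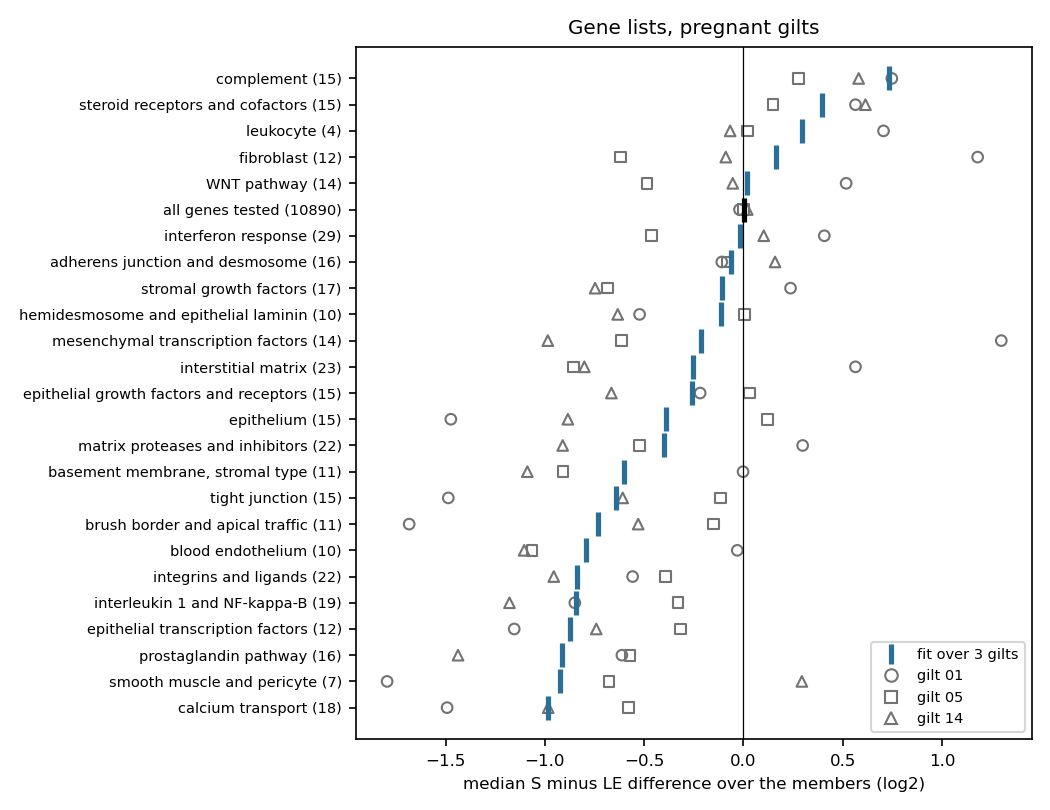
Median S minus LE difference (log2) over the members of each list with at least 4 genes in both tables (number in parentheses), from the fit over 3 gilts (bars) and from each gilt (open symbols). The fibroblast list moves from above 0 in gilt 01 (1.18) to below 0 in gilt 05 (−0.62), and the median over all 10890 genes lies at 0.002.

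Interferon response genes, a theme of early pregnancy in the pig, had a median log2 difference of −0.02 over 29 genes and 0 calls (0 towards S and 5 towards LE at an unadjusted p below 0.05, 0 and 3 by DESeq2). IFITM1 had 85.5, 113 and 94.8 CPM in S and 208, 208 and 384 CPM in LE (−1.39 ± 0.30, FDR = 0.0816). It was lower in S in each gilt, without overlap.

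A total of 642 genes were listed for S and not for LE, and 525 for LE and not for S. Genes left out of a table were removed by the authors' CPM filter or are not in it for other reasons, so their level there was not analysed. CPM of these genes are per library size. The S gene with the highest mean was UABP-2, a basic protein that binds uteroferrin, with 1171, 2709 and 244 CPM in gilts 01, 05 and 14. It was followed by RFX6 with 60.3, 197 and 581 CPM, CCL28, a chemokine of mucosal epithelia, with 90.8, 38.4 and 708 CPM, ADAMTS18 with 129, 323 and 355 CPM, and an unnamed locus. FOXA2, a transcription factor that marks uterine glands, was also listed for S and not for LE, at 23.8, 45.0 and 138 CPM. The defining lymphatic genes LYVE1 (44.6, 16 and 10.5 CPM) and PROX1 (46.1, 12.9 and 2.22 CPM) were listed for S and neither for LE nor for GE. FLT4, the only lymphatic gene in both tables, had 29.0, 10.4 and 1.6 CPM in S and 17.9, 16.3 and 4.3 CPM in LE. It was thus higher in S in gilt 01 and lower in gilts 05 and 14. Of the 642 genes, 481 were listed for GE.

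Among the genes listed for LE and not for S, ELN (elastin) had the highest mean, which came from gilt 01 (638, 4.86 and 9.22 CPM). SAA3, an acute phase protein, lay at 78.3, 92.6 and 46.4 CPM, NR4A3, a nuclear receptor, at 95.1, 79.7 and 17.5 CPM, and SLC15A1, a peptide transporter, at 122, 45.2 and 4.92 CPM. The fibroblast transcription factors HAND2 (17.9, 10.9 and 7.38 CPM) and TWIST1 (11.2, 8.29 and 4.30 CPM) belonged to this group. Of the 525 genes, 208 were listed for GE.

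The same contrast in the cyclic gilts, which are different animals, was used to see whether the differences were also there without conceptuses. For the 121 genes higher in S of pregnant gilts, the median log2 difference in cyclic gilts was 0.85, against 0.000 over all genes. The difference was above 0 for 114 of them (5448 of all 10890 genes), and 84 were higher in S in each of the 3 cyclic gilts (18.9% of all genes). Because the genes were picked on the pregnant gilts, a smaller value in the cyclic gilts is a description. DNAH5 had 29.0, 73.7 and 25.2 CPM in cyclic S and 1.86, 9.71 and 4.88 CPM in cyclic LE, a log2 difference of 2.94 ± 0.30, close to the 2.46 of pregnant gilts. MEP1B had 1128, 725 and 115 CPM in cyclic S and 151, 44.0 and 105 CPM in cyclic LE. ACP5 had 520, 590 and 179 CPM in cyclic S and 185, 164 and 157 CPM in cyclic LE, so that S was higher in each gilt by a smaller margin. MT1D overlapped in cyclic gilts, with 12.8, 244 and 68.3 CPM in S and 24.6, 106 and 48.1 CPM in LE.

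**Figure D5:**
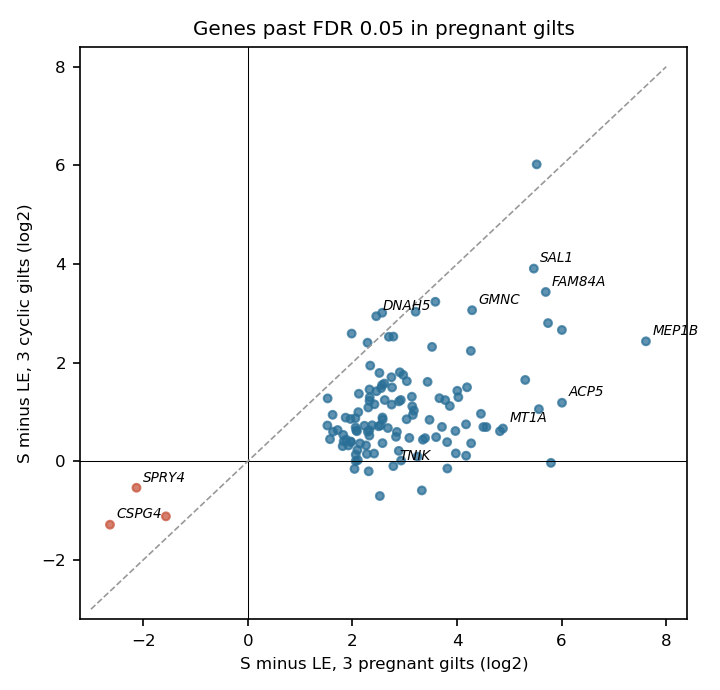
S minus LE difference (log2) in 3 pregnant gilts (x axis) and in 3 cyclic gilts (y axis) for the 124 genes past an FDR of 5% in pregnant gilts (blue, higher in S; red, higher in LE), with the line of equal differences dashed. Most points lie below the line and above 0, for example MEP1B at 7.61 and 2.43, whereas DNAH5 lies near the line.

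The test of the difference itself, pregnant minus cyclic, passed an FDR of 5% for 1 gene (0.00918% of 10890), with 1450 genes (13.3%) at an unadjusted p below 0.05. This was TNIK, a kinase that acts with the WNT pathway (chromosome 13, 109642848 to 110052345). Normalized over the 12 libraries, it lay at 64.9, 137 and 105 CPM in S and at 9.57, 18.4 and 17.3 CPM in LE of pregnant gilts, and at 74.2, 61.9 and 92.0 CPM in S and 78.2, 81.7 and 81.3 CPM in LE of cyclic gilts. LE of pregnant gilts thus stood below the other 3 groups, which overlapped. The difference of the differences was 2.84 ± 0.28 on the log2 scale (FDR = 0.0461), and without gilts 01, 02, 04 or 13, each in turn, it no longer passed the FDR. For MEP1B the corresponding value was 4.95 ± 1.54 (FDR = 0.245), for ACP5 4.82 ± 1.08 (FDR = 0.208) and for MT1D 3.78 ± 0.73 (FDR = 0.143).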

How the data were processed

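RNA-seq counts of LCM cells were compared between S and LE of 3 pregnant gilts (01, 05 and 14). The authors clipped adapters, mapped reads with Hisat2 to Sscrofa11.1 (NCBI), used random adapter bases to discard PCR duplicates, dropped genes of low CPM and deposited 1 table of read counts per cell type; tables were joined by NCBI Gene ID, and symbols were matched for all 12401 IDs. How reads were assigned to genes, whether by strand, and the CPM limit are not given in the sources used here.

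Deposited counts of 10890 genes were fitted by edgeR (version 4.0.16, under R 4.3.3) after TMM normalization, with library sizes from the whole tables, gilt as a block and the quasi-likelihood test, and called at an FDR (Benjamini-Hochberg) below 0.05. Log2 differences are S minus LE with SE. This SE is approximate: it is the absolute log2 difference divided by the square root of the F statistic of the test. The scripts were tested on simulated data. At 3 counts a library has 0.857 to 3.36 CPM, which limits low genes. The difference between pregnant and cyclic gilts was fitted over 12 libraries of 6 gilts. This fit also gave the log2 differences of cyclic gilts, while those of pregnant gilts are from the fit over 6 libraries. The labels give each library its gilt, and within a gilt the deviations of S and LE from the compartment means had correlations of 0.419, 0.352 and 0.415. Between gilts they were −0.315 to −0.0552. With deviations from a mean of the same 3 libraries, positive values within gilts bring negative ones between gilts, so the latter are no separate evidence. Replicates are gilts, and p values set the S minus LE difference within gilts against how much that difference varies between them. The test estimates this spread in part from all genes together and not from the 3 gilts of each gene alone.

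Gene lists (8 of markers, 20 of topics), members and rules were chosen with earlier results of these data known. Named genes were the 12 with the largest difference in each direction that passed the FDR, did not overlap and reached 50 CPM (1 such gene in LE), defining markers, up to 6 highest members of each list, genes of the pregnant-minus-cyclic test and the 5 highest genes of 1 table; members of lists outside this rule, the zinc and cilia groups, LEF1, NFIB, CSPG4 and MCAM were named after their values were seen. Some genes that the rule names are not reported here. List tests were not made. Alternatives included limma 3.58.1 and DESeq2 1.42.0.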

Additional observations from a re-analysis of the deposited data

Results flagged for a closer look

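TNIK was the only gene for which the difference between S and LE differed between pregnant and cyclic gilts past an FDR of 5% (edgeR, quasi-likelihood test). In the fit over 12 libraries the difference of the differences was 2.84 on the log2 scale (FDR = 0.0461). That fit gave cyclic gilts a log2 difference between S and LE of −0.10 ± 0.18, and the fit over 6 libraries gave pregnant gilts one of 2.78 ± 0.27. TNIK was higher in S in 3 of 3 pregnant gilts and in 1 of 3 cyclic gilts. Which change in the cells lies behind it was not tested.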

How the results depend on the processing

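All 121 genes higher in S and the 3 higher in LE kept their direction under every alternative in which they had a value. Without the replicate block 2 genes were called in S and 0 in LE (list members 0 and 0, pregnant minus cyclic 0), so that the calls rest on the paired design. At least 10 counts in every library left 46 and 1 (list members 3 and 1). DESeq2 called 432 and 537 (26 and 63 list members, 279 genes pregnant minus cyclic), the likelihood ratio test of edgeR 647 and 692 (27 and 70), limma voom 201 and 36 (9 and 7), voom with a 7th library, LE of gilt 03, and gilt as a random block 307 and 186 (14 and 15), and 12 libraries in one fit 576 and 731 (23 and 67). Library size alone gave 10 genes in LE (2 list members), and thinned counts 10. At an FDR of 0.01 edgeR called 0 genes in either direction and 0 list members, with 1091 and 1202 at an unadjusted p below 0.05, and at an unadjusted p of 0.0021 it called 215 and 66 (9 and 9 list members). Leaving out each gilt gave 98 to 191 genes in S and 1 to 320 in LE, 7 to 12 and 1 to 41 list members, and 0 to 338 genes pregnant minus cyclic, with the highest count of each without gilt 05. Of the 121 genes, 62 were called without gilt 14, 96 without gilt 01 and 110 without gilt 05. Of the genes listed in only 1 table, 265 of S and 226 of LE had at least 10 counts in each library. The causes were not tested. RLE size factors and filterByExpr changed no count of calls by over 1.5 times, and marker ratios kept their sign with library size alone.

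Depth was lowest in both libraries of gilt 01, in which 3 counts are 2.23 CPM in S and 3.36 CPM in LE. With 3 gilts and 6 libraries the spread is poorly known, and the number of calls, and its balance between S and LE, moves with the test.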

Other observations

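Genes of the tight junction and the apical surface, not described gene by gene above, had medians below 0 without calls. The 15 tight junction genes in both tables had a median log2 difference of −0.64 (0 towards S and 5 towards LE at an unadjusted p below 0.05, 0 and 2 called by DESeq2, 0 by edgeR at an FDR of 5%). OCLN (occludin) lay at 137.5, 666 and 309 CPM in S and at 559, 893 and 946 CPM in LE (FDR = 0.112), whereas TJP1, a scaffold protein of the junction, had 377, 470.2 and 449 CPM in S and 414, 484 and 536 CPM in LE (FDR = 0.801). The 11 brush border genes in both tables had a median of −0.73 (1 towards S and 5 towards LE at an unadjusted p below 0.05, 1 and 2 called by DESeq2). The member towards S was MYO6, a motor of apical traffic, with 214, 458 and 1597 CPM in S and 116, 191 and 177 CPM in LE, without overlap (log2 difference 1.77 ± 0.49, FDR = 0.108).

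DSC2, a desmosomal cadherin named after its values were seen, was higher in S in each gilt, with 162, 422 and 332 CPM in S and 7.01, 47.4 and 180 CPM in LE (FDR = 0.0921), and S of gilt 01 lay below LE of gilt 14.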
